A study of Homo sapiens with 4 samples.

Results

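CEACAM1, CEACAM5, CEACAM6 and CEACAM7 are 4 adhesion molecules of the carcinoembryonic antigen (CEA) family, and their mRNA levels were read on 4 Clariom S arrays of prostate cancer cells. They are 4 of 17687 measured genes, each read by 1 probe set (a group of array probes for one transcript). They were picked because CEACAM1 and CEACAM5 differed strongly between constructs within a pair of arrays, so those differences are given as a description and were not tested. PC3 cells come from a bone metastasis and lack androgen receptor activity, and C42B cells derive from the androgen-responsive LNCaP line. Each line had been stably transfected with a pMIR vector that expresses the human miR-410 precursor and a GFP reporter from the CMV promoter (miR-410), or with the matching scrambled construct (miR-CON), and all cultures were kept in puromycin and harvested in logarithmic growth. Whether a stable line was a pool or 1 clone is not given in the sources used here. There was 1 array per line and construct and no replicate. All values below are Robust Multi-array Average (RMA) values on the log2 scale as the authors deposited them, so a difference of 1 is 2-fold, and no probe set is compared with another. Where 4 values follow each other, they stand in array order, which is first PC3 miR-CON, then PC3 miR-410, then C42B miR-CON and last C42B miR-410.

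The labels leave the identity of the arrays unsettled, so each array is named by its title here. On both arrays titled PC3 the construct in the title is contradicted by the fields for genotype and description, whereas for those titled C42B all fields name the same construct. The line named in the titles also went against the cells' markers. The mean of the arrays titled C42B was the higher one for 0 of the 11 LNCaP lineage markers that were measured, and 9 were called lower there by the limma test described below. It was the higher one for 14 of the 15 measured PC3 markers, and 14 were called higher there. By these markers, the arrays titled C42B read like PC3 cells and those titled PC3 like cells of the LNCaP lineage. The line names in the titles thus appear exchanged, and every line named below is the titled one. Arrays of a pair correlated at 0.99 (titled PC3) and 0.98 (titled C42B) over probe sets, and arrays of different pairs at 0.881 to 0.886. Array medians lay between 6.34 and 6.39 and the 25th percentiles between 4.47 and 4.63. Whether a probe set stood above background was not examined.

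CEA family proteins carry immunoglobulin domains through which they bind one another on neighbouring cells. CEACAM1 spans the membrane, and its long form carries inhibitory tyrosine motifs that recruit the phosphatases SHP-1 and SHP-2. CEACAM5, the carcinoembryonic antigen measured in serum as a tumour marker, CEACAM6 and CEACAM7 lack a cytoplasmic tail and are held by a glycosylphosphatidylinositol (GPI) anchor. CEACAM1 is made by many epithelia, prostate included, and by leukocytes, CEACAM5 and CEACAM7 mainly by the gut lining, and CEACAM6 by several epithelia and granulocytes. The 4 genes lie in one cluster on chromosome 19. Their sequences are much alike, and because probe sequences were not used here, it was not examined how far a probe set also reads a relative.

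The stretch of 150 bases that precedes each start site is shown because CEACAM1 and CEACAM5 differed strongly between constructs, whereas their relatives CEACAM6 and CEACAM7 did not reach 2-fold. Sequences come from RefSeq (GRCh38.p14), in which all 4 genes matched, and are written 5′ to 3′ on the strand of the gene. They lie at chr19:42528482-42528631 (minus strand) for CEACAM1, chr19:41708476-41708625 (plus strand) for CEACAM5, chr19:41755380-41755529 (plus strand) for CEACAM6 and chr19:41688271-41688420 (minus strand) for CEACAM7. Capitals mark matches to 4 motifs searched on both strands, and no 2 matches overlap.
CEACAM1: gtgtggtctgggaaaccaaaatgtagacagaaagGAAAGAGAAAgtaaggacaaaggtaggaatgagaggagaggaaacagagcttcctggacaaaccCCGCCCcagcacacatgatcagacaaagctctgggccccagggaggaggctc
CEACAM5: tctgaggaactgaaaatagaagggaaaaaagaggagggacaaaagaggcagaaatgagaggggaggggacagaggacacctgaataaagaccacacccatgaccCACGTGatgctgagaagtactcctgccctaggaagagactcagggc
CEACAM6: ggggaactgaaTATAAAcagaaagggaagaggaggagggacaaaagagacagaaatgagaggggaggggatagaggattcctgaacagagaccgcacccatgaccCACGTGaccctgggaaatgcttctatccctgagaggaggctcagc
CEACAM7: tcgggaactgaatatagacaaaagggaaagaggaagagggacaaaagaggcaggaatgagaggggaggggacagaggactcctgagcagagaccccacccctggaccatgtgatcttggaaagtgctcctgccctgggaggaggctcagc
The E-box CACGTG, a sequence that upstream stimulatory factors can bind, stood in CEACAM5 at positions -46 to -41 and in CEACAM6 at -45 to -40 from the start site, and 4.56% of 35097 promoter windows of the same length hold it. The GC box GGGCGG, which Sp1 can bind, stood on the minus strand of CEACAM1 at -52 to -47 and in 36.8% of all windows. CEACAM1 also held an interferon-response core, GAAA repeated after a spacer of 2 bases, at -116 to -107, which 1.74% of windows hold. The TATA box letters TATAAA stood in CEACAM6 at -139 to -134 and in 6.71% of windows. CEACAM7 held no match to these letters in this window. Over the alignment, with gaps counted as differences, the windows of CEACAM6 and CEACAM7 were 83.4% identical, those of CEACAM5 and CEACAM7 79.9%, and those of CEACAM5 and CEACAM6 78.1%, whereas CEACAM1 was 60.7% to 67.5% identical to the other 3. The E-box is thus in one gene that differed strongly in the pair titled C42B (CEACAM5) and in one that did not reach 2-fold (CEACAM6), and it was not found in this window of CEACAM1. A match is a description of letters and not of a bound site.

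The stably expressed microRNA is shown with its seed (bases 2 to 8) in capitals, the part that pairs with target mRNAs. It is encoded at chr14:101065961-101065981 (plus strand, GRCh38.p14).
hsa-miR-410-3p: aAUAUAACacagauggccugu
No probe set was named for its precursor, so its own level was not read from these arrays, and target sites in the CEACAM transcripts were not examined.

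CEACAM1 was higher on the array titled miR-CON than on that titled miR-410 in both pairs. Its RMA value was 4.78 on the array titled PC3 miR-CON, 3.26 on PC3 miR-410, 7.16 on C42B miR-CON and 4.07 on C42B miR-410. The array titled C42B miR-CON stood above the other 3, which spanned 1.52. By title, CEACAM1 was 3.09 higher (8.54-fold) with miR-CON in the pair titled C42B, at rank 35 of 17687 genes from the highest. In the pair titled PC3 it was 1.52 higher (2.86-fold), at rank 42. Its values in that pair were low, at percentiles 27 (miR-CON) and 9.13 (miR-410) of all genes on their arrays. The directions by title are not settled, since the study gives the other direction and the other line for CEACAM5 and for ESRP1, SLC6A14 and CDH6 described below, and the genotype field turns that of the pair titled PC3.

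CEACAM5 was high on 1 array and low on the other 3. Its RMA value was 4.56 on PC3 miR-CON, 4.03 on PC3 miR-410, 8.61 on C42B miR-CON and 4.22 on C42B miR-410. The 3 low arrays lay within 0.53 of each other, and the high one stood 4.05 above the nearest of them. The difference within the pair titled C42B was 4.39 (21.0-fold), the fifth highest of all genes, and that within the pair titled PC3 was 0.53 (1.44-fold), at rank 797. With the sign turned, the difference within the pair titled C42B would be the fifth lowest in place of the fifth highest.

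CEACAM6 and CEACAM7 varied less over the arrays. CEACAM6, the GPI-anchored relative that binds CEACAM5 and itself, had RMA values of 4.68 on PC3 miR-CON, 4.91 on PC3 miR-410, 6.07 on C42B miR-CON and 5.38 on C42B miR-410. Both arrays titled C42B were above both titled PC3. Its differences between constructs were 0.69 (1.62-fold, rank 878) in the pair titled C42B and -0.23 in the pair titled PC3. CEACAM7, a GPI-anchored protein of the colonic lining, read 3.53, 3.37, 3.74 and 3.68 in array order. Its whole range was 0.37, and the constructs differed by 0.06 (titled C42B) and 0.16 (titled PC3).

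**Figure D1:**
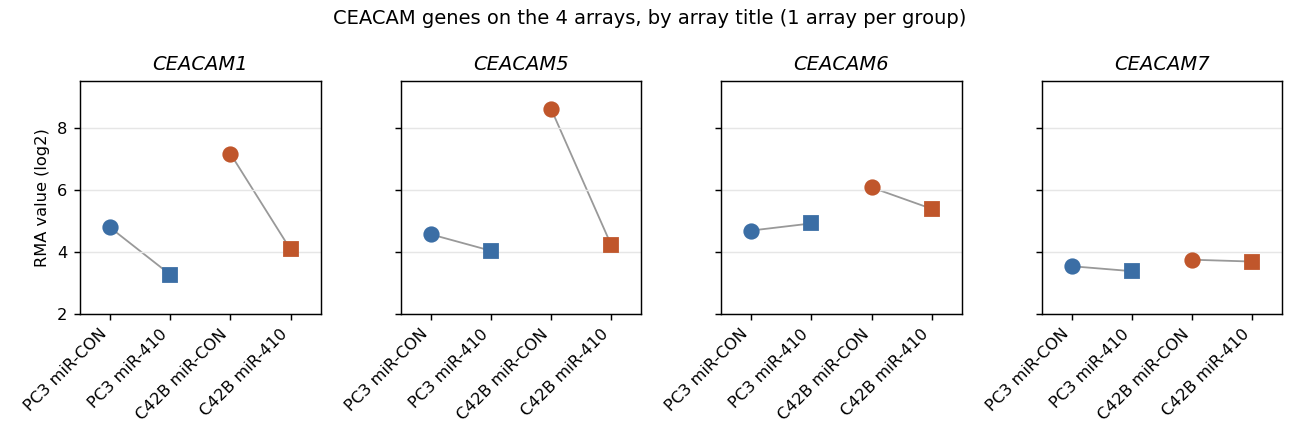
RMA values (log2, vertical axis) of the 4 CEACAM genes on each array by title, with circles for miR-CON, squares for miR-410, blue for arrays titled PC3 and orange for arrays titled C42B, and a line joining the arrays of a pair. The array titled C42B miR-CON gave the highest values of CEACAM1 (7.16) and CEACAM5 (8.61), whereas CEACAM6 spanned 1.39 and CEACAM7 0.37.

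Against all genes, differences of this size were rare in the pair titled C42B and rarer in the pair titled PC3. In the pair titled C42B, 2 of 4 CEACAM genes were 2-fold or more higher with miR-CON, beside 2.26% of all genes, and 0 were at least 2-fold lower, beside 1.35%. In the pair titled PC3, 1 of 4 was at least 2-fold higher, beside 0.656%, and 0 were at least 2-fold lower, beside 0.441%. The genes were picked on this contrast, so nothing follows from these counts. The median absolute difference of all genes was 0.245 in the pair titled C42B and 0.164 in the pair titled PC3. CEACAM7 lay under both medians, and CEACAM6 was above both.

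CEACAM1 was 1 of 10 genes that were at least 2-fold higher with miR-CON in both pairs. The others were SORBS2, PELI2, TMEM45B, POF1B, CAMK2N1, THBS1, CDH6, SYT17 and PPP4R4. THBS1, which encodes the matrix protein thrombospondin-1, was 1.72 higher in the pair titled C42B and 2.62 higher in the pair titled PC3. CDH6, a cadherin and so another cell adhesion molecule, was 1.31 and 3.47 higher. CEACAM1 had the widest difference of the 10 in the pair titled C42B. With the sign of the pair titled PC3 alone turned as in the genotype field, these 10 genes differ in opposite directions in the pairs. The study lists CEACAM5 and CDH6 as raised with miR-410, which would turn both pairs. With both turned, the 10 genes would again differ alike, each lower with miR-CON.

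**Figure D2:**
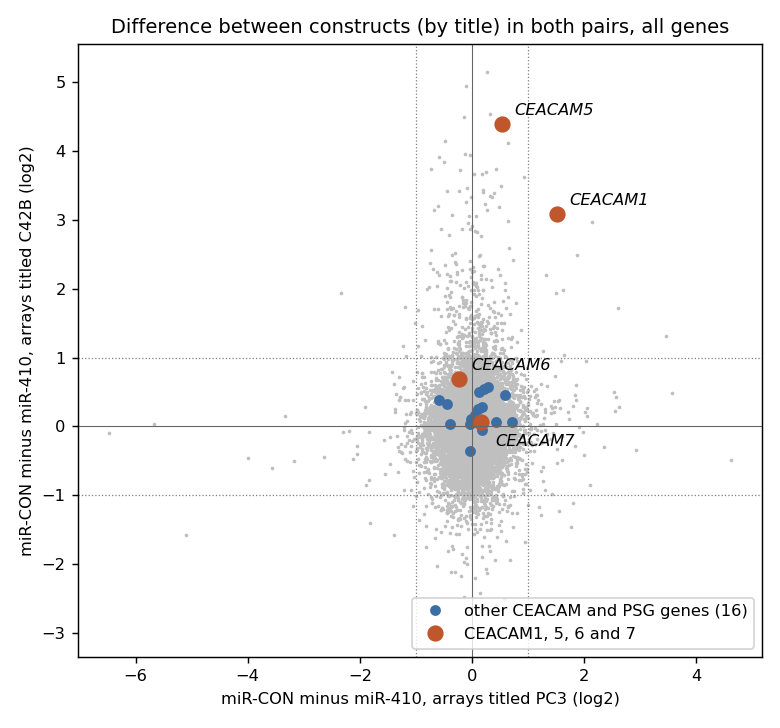
Difference between constructs by title (miR-CON minus miR-410, log2) of 17687 genes in the pair titled PC3 (horizontal axis) and the pair titled C42B (vertical axis), in grey, with the 4 CEACAM genes in orange, 16 other CEA family genes in blue and dotted lines at 2-fold. CEACAM5 (0.53, 4.39) and CEACAM1 (1.52, 3.09) lie far above the other family members, which stayed within 2-fold in both pairs, as most genes did.

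The arrays titled C42B were next compared with those titled PC3. The comparison was fitted for all 17687 genes with limma, with line and construct by title as terms, and p-values were adjusted over all genes by the Benjamini-Hochberg method. The 2 arrays of a line carry different constructs and are not true replicates, and 1 residual degree of freedom was left per gene. The high array titled C42B miR-CON, on whose values CEACAM1 and CEACAM5 were picked, enters the comparison, so their line differences are given as a description with no test. At an adjusted p under 0.05, limma called 11.4% of all genes as higher on the arrays titled C42B and 13.3% as higher on those titled PC3.

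CEACAM1 was 1.59 higher on the arrays titled C42B, by 2.38 between the miR-CON arrays and by 0.80 between the miR-410 arrays. Its single values overlapped, since the array titled PC3 miR-CON (4.78) was above that titled C42B miR-410 (4.07). With 1 array left out, 3 arrays leave no degree of freedom for a construct term, so these values come from fits with line only. The difference was then 0.04 without C42B miR-CON, 0.83 without PC3 miR-410, 2.35 without PC3 miR-CON and 3.14 without C42B miR-410.

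CEACAM5 was 2.12 higher on the arrays titled C42B. The miR-CON arrays of the lines differed by 4.05 and the miR-410 arrays by 0.19. With line only and 1 array left out, the difference was 4.31 without C42B miR-410 and -0.08 without C42B miR-CON.

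CEACAM6 was 0.93 higher (95% confidence interval 0.23 to 1.63, limma adjusted p = 0.0662), by 1.39 between the miR-CON arrays and 0.47 between the miR-410 arrays. It passed the threshold with the construct of the genotype field (adjusted p = 0.0314), which turns the pair titled PC3 alone. It did not pass with line only and all 4 arrays (adjusted p = 0.0561) or with an intensity trend (adjusted p = 0.0654). Leaving 1 array out leaves a line with 1 array. With line only, the difference then ran from 0.58 without C42B miR-CON to 1.28 without C42B miR-410. CEACAM7 was 0.26 higher (interval -0.2 to 0.72, adjusted p = 0.37). For CEACAM6 and CEACAM7 both values titled C42B were above both titled PC3, a pattern that 29.4% of all genes had.

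The other genes of the family did not reach 2-fold between constructs in either pair. In all, 16 of 18 listed relatives were measured. Of all genes, 2.26% were at least 2-fold higher with miR-CON and 1.35% lower in the pair titled C42B. The shares were 0.656% and 0.441% in the pair titled PC3, so 0 of 16 is near them. Limma called 0 of the 16 between lines, beside 11.4% of all genes higher on the arrays titled C42B and 13.3% lower. The unadjusted p was under 0.05 for 2 of the 16, beside 6603 of 17687 genes. The 2 were PSG4 (0.56, adjusted p = 0.0845) and PSG9 (0.54, adjusted p = 0.12). CEACAM3, a granulocyte receptor for bacteria and a close neighbour of CEACAM6, had RMA values of 6.01, 5.72, 6.23 and 5.66 in array order. CEACAM8, a granulocyte surface marker, had values of 5.54, 4.82, 5.07 and 5.01, and its difference of 0.71 in the pair titled PC3 was the highest among the relatives. CEACAM19 had values of 6.0, 6.58, 6.09 and 5.70, with a difference of -0.58 in that pair, the lowest. CEACAM16, a protein of the inner ear matrix, CEACAM20 and CEACAM21 differed by 0.11, 0.29 and -0.05 in the pair titled C42B and by -0.02, 0.18 and 0.18 in the pair titled PC3. The 10 measured PSG genes, which encode the pregnancy-specific glycoproteins secreted by the placenta, differed by -0.35 to 0.54 (median 0.21) in the pair titled C42B and by -0.44 to 0.59 (median 0.08) in the pair titled PC3. Over the 16 relatives the medians were 0.21 and 0.12, beside -0.01 and 0.01 over all genes.

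Neighbouring genes on chromosome 19 lay within 2-fold between constructs. From 5 measured genes before CEACAM7 to 5 after CEACAM1, 31 measured genes were no member, 21 of which lay between CEACAM7 and CEACAM1. Of all genes, 2.26% were at least 2-fold higher with miR-CON and 1.35% lower in the pair titled C42B. The shares were 0.656% and 0.441% in the pair titled PC3. Of the 31 neighbours, 0 were at least 2-fold apart in either pair, which is near these shares. Their differences ran from -0.62 (PAFAH1B3) to 0.82 (RABAC1) around a median of 0.07 in the pair titled C42B, and from -0.45 (LYPD4) to 0.71 (CEACAM8), around a median of 0.06, in the other pair. CEACAM21 and CEACAM7 on one side of CEACAM5 and CEACAM6 and CEACAM3 on the other differed by -0.05, 0.06, 0.69 and 0.58 in the pair titled C42B, against 4.39 for CEACAM5. Between lines, limma called 3 of the 31 higher on the arrays titled C42B and 2 lower, beside 11.4% and 13.3% of all genes. The 3 were DMAC2 (0.93, adjusted p = 0.0206), POU2F2 (1.18, adjusted p = 0.0107) and LIPE (0.73, adjusted p = 0.0469), and the 2 were PAFAH1B3 (-1.08, adjusted p = 0.0327) and CIC (-0.78, adjusted p = 0.0444).

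**Figure D3:**
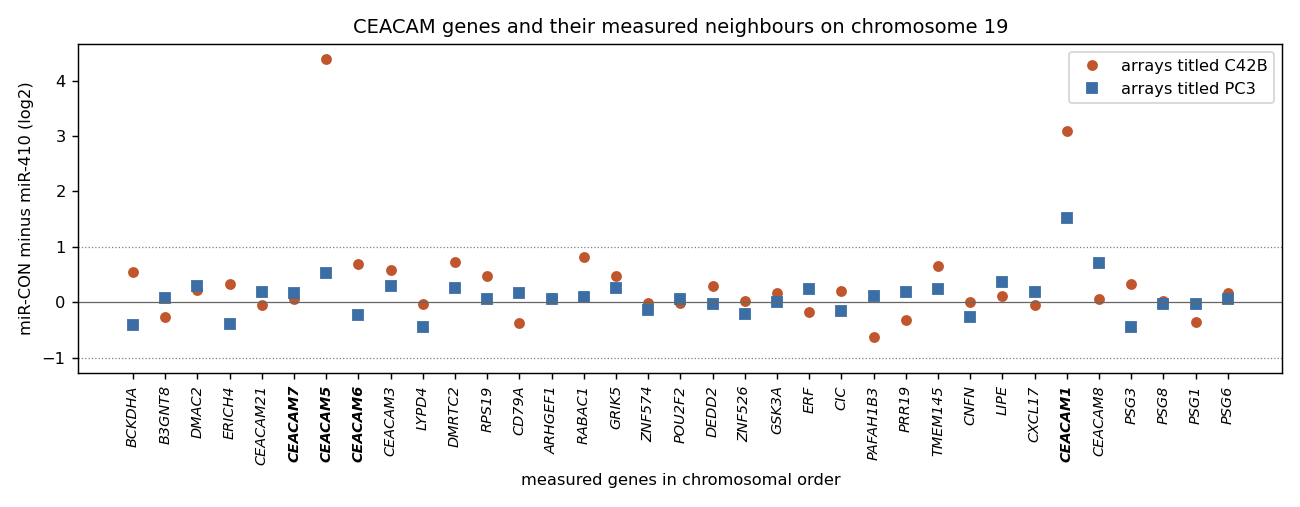
Difference between constructs by title (miR-CON minus miR-410, log2, vertical axis) of the CEACAM genes (bold) and 31 measured neighbours in their order on chromosome 19, as circles for the arrays titled C42B and squares for those titled PC3, with dotted lines at 2-fold. CEACAM5 (4.39) and CEACAM1 (3.09) stand out in the pair titled C42B, and the neighbours lie between -0.62 and 0.82.

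The genes most like each member over the 4 arrays were found by the Euclidean distance between values centred on each gene's mean, a description whose points are the 4 arrays. The nearest to CEACAM5 was SLC6A14, an amino acid transporter of epithelia, at a distance of 0.34, with RMA values of 3.30, 2.97, 7.81 and 3.28 in array order. DNAJC15 (0.70), VGLL1 (0.73), SPARC (0.75) and MMP13 (0.85) came next, and 9 genes lay within 1. SPARC is a secreted matrix protein and MMP13 a collagenase. All 5 read 6.93 to 8.21 on the array titled C42B miR-CON, against 2.95 to 4.40 on the other 3.

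The nearest to CEACAM1 were EFEMP1 (0.73), a matrix protein, TMEM45B (0.82), NNMT (0.85), a nicotinamide methyltransferase, NPNT (0.87), an integrin ligand of basement membranes, and OSTN (0.95), and 7 genes lay within 1. Of these 5, TMEM45B was at least 2-fold higher with miR-CON in both pairs as CEACAM1 was, with values of 7.67, 6.34, 10.21 and 8.01. CEACAM5 lay at 1.27 from CEACAM1, as the gene at place 21 among those nearest to CEACAM1, while CEACAM1 was at place 12 from CEACAM5. For CEACAM6, 5743 genes lay within 1 and the nearest was ITPRIPL2 at 0.03. CEACAM6 itself varied little (range 1.39), so a distance of 1 also takes in genes that hardly varied, such as CEACAM7 (0.86). The count therefore does not show a shared pattern. CEACAM7 varied too little for a search.

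Genes of the proteins that act with CEACAM1 did not reach 2-fold between constructs. Of 10 measured (of 16 listed), 4 were above 0 and 6 below 0 in the pair titled C42B (median -0.16), and 6 and 4 in the pair titled PC3 (median 0.11). Between lines limma called 3 of the 10 higher on the arrays titled C42B and 2 lower, beside 11.4% and 13.3% of all genes. PTPN6, which encodes SHP-1, had values of 7.39, 6.99, 5.87 and 5.63 and was called lower on the arrays titled C42B (-1.44, adjusted p = 0.00644). LYN, a Src family kinase, was also called lower (-1.21, adjusted p = 0.0144). PXN, the focal adhesion protein paxillin (1.98, adjusted p = 0.00369), SRC (1.30, adjusted p = 0.00859) and ITGB3, an integrin subunit (1.06, adjusted p = 0.0399), were called higher. CTNNB1, which encodes beta-catenin, differed by 0.48 between lines (adjusted p = 0.187).

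Genes that build the GPI anchor of CEACAM5, CEACAM6 and CEACAM7 lay slightly below 0 in the pair titled C42B. Of 28 measured (of 31), 9 were above and 19 below 0 (median -0.17), and 2 of them were at least 2-fold lower with miR-CON while 0 were 2-fold higher, beside 1.35% and 2.26% of all genes. PIGB, a mannosyltransferase of the pathway, had values of 8.43, 8.65, 6.96 and 8.06, and PGAP1, which removes the lipid on inositol after attachment, 6.42, 6.20, 7.75 and 8.76. In the pair titled PC3 the median of the 28 was 0.02, and 0 reached 2-fold, beside 0.656% higher and 0.441% lower of all genes. PIGA, which starts the pathway, differed by -0.08 and 0.31. Limma called 3 of the 28 higher on the arrays titled C42B and 5 lower, shares near the 11.4% and 13.3% of all genes.

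Other GPI-anchored surface proteins lay on both sides of 0. Of 34 measured, 19 were above and 15 below 0 in the pair titled C42B (median 0.07). There LY6E was at least 2-fold higher with miR-CON (1.00), and LYPD1 (-1.45) and CPM (-1.30), a carboxypeptidase, were at least 2-fold lower. These are 1 and 2 of the 34, beside 2.26% and 1.35% of all genes. The pair titled PC3 had 16 above and 18 below 0 (median -0.02). BST2, the interferon-induced protein tetherin, was the 1 that reached 2-fold, beside 0.656% higher and 0.441% lower of all genes. Its values were 4.34, 2.49, 3.0 and 2.55. NT5E, the ecto-nucleotidase CD73, had values of 4.23, 5.22, 10.76 and 10.52 and was called higher on the arrays titled C42B (5.91, adjusted p = 0.000586), as were 8 others of the 34, with 6 called lower, beside 11.4% and 13.3% of all genes.

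Among 20 measured genes (of 22) for regulators of CEACAM transcription and splicing, 1 was at least 2-fold higher with miR-CON in the pair titled C42B, beside 2.26% of all genes. ESRP1, an epithelial splicing factor, had values of 10.46 on PC3 miR-CON, 10.59 on PC3 miR-410, 10.89 on C42B miR-CON and 6.39 on C42B miR-410. It was thus low on the array titled C42B miR-410 alone, with a difference of 4.50 in that pair, and high on both arrays titled PC3, where CEACAM5 was low. The list's medians were -0.10 (9 above and 11 below 0) and 0.01 (11 and 9). IRF1, an interferon-response factor, had values of 4.92, 4.40, 5.43 and 5.96. Between lines limma called 4 higher on the arrays titled C42B, namely KLF5 (3.65, adjusted p = 0.001), SMAD3 (3.07, adjusted p = 0.000783), SOX9 (2.62, adjusted p = 0.00149) and TFAP2A (1.10, adjusted p = 0.0131), and ATF3 lower (-1.76, adjusted p = 0.00983), beside 11.4% and 13.3% of all genes. KLF5 is a factor of gut and prostate epithelium and SMAD3 a mediator of TGF-beta signals.

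Several other epithelial adhesion genes were, like CEACAM1 and CEACAM5, higher on the array titled C42B miR-CON than on C42B miR-410. Of 27 measured (of 30), 18 were above and 9 below 0 in that pair (median 0.10), with 4 at least 2-fold higher and 0 lower, beside 2.26% and 1.35% of all genes. EPCAM, an epithelial surface glycoprotein, had values of 11.30 on PC3 miR-CON, 11.39 on PC3 miR-410, 11.07 on C42B miR-CON and 7.61 on C42B miR-410. CDH1, which encodes E-cadherin, had values of 10.27, 10.29, 7.97 and 4.63, and CXADR, a tight junction protein, 9.08, 9.12, 8.03 and 4.97. All 3 were high on both arrays titled PC3, where CEACAM5 was low, so their order over the arrays differed from that of CEACAM5. The list also holds other adhesion molecules with immunoglobulin domains, and the fourth was one of these, NCAM1 (1.17). Its values were low, at 4.45, 4.04, 4.72 and 3.55 in array order. In the pair titled PC3, 17 of the 27 were above and 10 below 0 (median 0.19). There 0 reached 2-fold, beside 0.656% higher and 0.441% lower of all genes. Limma called 6 of the 27 as higher on the arrays titled C42B and 4 as higher on those titled PC3, beside 11.4% and 13.3% of all genes, with CDH1 among the 4 (-3.98, adjusted p = 0.0214).

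Most listed genes of mucosal epithelia, in which CEACAM5 and CEACAM6 are typically found, lay above 0 in the pair titled C42B. Like the other lists, this one was chosen with earlier results of these data known, so its counts do not test a mucosal theme. Of 28 measured (of 30), 23 were above and 5 below 0 (median 0.43, beside -0.01 over all genes), with 8 at least 2-fold higher and 0 lower, beside 2.26% and 1.35% of all genes. LCN2, a secreted iron-binding protein of inflamed epithelium, had values of 6.03, 5.77, 11.16 and 8.01, and AGR2, a protein of mucus-producing cells, 4.18, 4.28, 9.16 and 7.32. Both were, like CEACAM5, highest on the array titled C42B miR-CON, but their values on C42B miR-410 stayed above those on the arrays titled PC3. ST14 (9.43, 9.5, 8.86 and 5.90), a membrane protease, EHF (11.97, 11.90, 9.84 and 7.01), an epithelial transcription factor, and CLDN7 (10.06, 9.98, 8.46 and 6.42), a tight junction protein, were instead high on both arrays titled PC3. TFF1 (1.83), TSPAN8 (1.81) and LAD1 (1.58) completed the 8. The pair titled PC3 had 14 above and 14 below 0 (median 0.01). There 0 reached 2-fold, beside 0.656% higher and 0.441% lower of all genes. MUC1, a transmembrane mucin, differed by 0.30 and -0.56. Of the 28, limma called 4 as higher on the arrays titled C42B and 3 as lower, shares near the 11.4% and 13.3% of all genes.

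**Figure D4:**
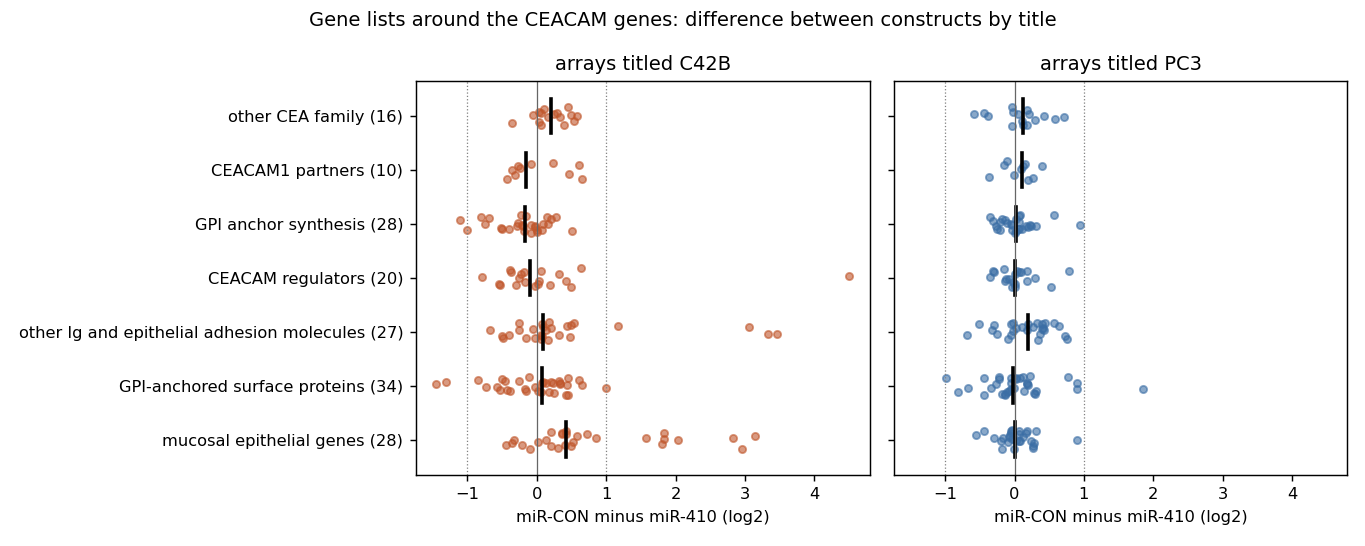
Difference between constructs by title (miR-CON minus miR-410, log2, horizontal axis) for 7 gene lists around the CEACAM genes, 1 point per measured gene, a black bar at the list's median, dotted lines at 2-fold and the number of genes in brackets, with arrays titled C42B on the left and those titled PC3 on the right. The median of the mucosal epithelial genes was 0.43 on the left and 0.01 on the right. The relatives of the CEA family stayed within 2-fold, as most genes did. The lists were chosen with earlier results of these data known.

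Leukocyte markers were read because CEACAM1, CEACAM6 and CEACAM8 are also made by blood cells. Of 9 measured (of 10), 0 were 2-fold apart in either pair. Of all genes, 2.26% were at least 2-fold higher with miR-CON and 1.35% lower in the pair titled C42B. The shares were 0.656% and 0.441% in the pair titled PC3. Values of the 9 markers ran from 3.39 to 6.84, and their medians were 4.69, 4.95, 5.14 and 4.98 in array order. PTPRC, the pan-leukocyte antigen CD45, had values of 3.78, 3.39, 4.35 and 3.61. Limma called 1 of the 9 higher on the arrays titled C42B and 0 lower, beside 11.4% and 13.3% of all genes. The 1 is near the share of all genes. It was ITGB2 (1.00, adjusted p = 0.0174), a leukocyte integrin subunit. ITGB2 differed by 0.95 between constructs in the pair titled C42B and by 0.81 in the pair titled PC3. The part of such cells in the CEACAM values was not tested. On bulk arrays, fewer cells that express a gene and less RNA per cell cannot be told apart, and with 1 array per group neither can a construct and the single stable line that carried it.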

How the data were processed

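RNA of the stable PC3 and C42B lines with miR-410 or miR-CON was hybridized by the authors to 1 Clariom S array per group. The log2 values deposited by the authors came from Partek after RMA normalization, with 1 value for each probe set on each array. Scanner files were not used here, so signal over background, RNA quality and batches were not examined. Depth does not apply to such values, and precision is limited by the number of arrays.

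Samples were grouped by title. Of 21448 probe sets, 17709 had 1 gene symbol in the platform's table and 3739 were not named. Probe sets of a gene were averaged (20 genes with more than 1), giving 17687 genes, all found in RefSeq's table. Constructs were compared within a pair as miR-CON minus miR-410, as values and counts at 2-fold. Lines were compared with limma 3.58.1 in R 4.3.3 (lmFit and eBayes without trend, line and construct by title, prior degrees of freedom 4.03) with Benjamini-Hochberg adjustment at 0.05. Among all genes, 2012 were called for higher values on the arrays titled C42B and 2354 for lower ones, and 6603 had an unadjusted p under 0.05. The limma step was tested on simulated data.

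The members and all 10 gene lists were chosen with earlier results of these data known. Named genes were the members, every other measured CEACAM gene, the ends of the PSG range, the 3 highest and 3 lowest of each list and any gene 2-fold apart in each pair, of which the text gives a choice. Genes called between lines were named after their values were seen. Neighbours were taken in RefSeq order from 5 measured genes before to 5 after the members, and pattern searches needed a range over 1. Alternatives were the fold threshold, centring, a loess trend (span 0.4), renewed quantile normalization, the brightest probe set, filters on dim genes, probe sets in place of genes, the construct by genotype field, limma with line only or an intensity trend, and each array left out (with line only, since 3 arrays leave no degree of freedom for both terms). Python 3.11.15, NumPy 2.4.6, pandas 2.3.3, statsmodels 0.14.6, Biopython 1.88 and Matplotlib 3.10.9 were used.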

Additional observations from a re-analysis of the deposited data

Results flagged for a closer look

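CEACAM6 differed between constructs in opposite directions in the pairs. By title, miR-CON minus miR-410 was 0.69 in the pair titled C42B and -0.23 in the pair titled PC3. The difference between the pairs was not tested, since each rests on 1 array per construct, and 47% of all genes also had opposite signs in the pairs. With the construct of the genotype field, which turns the pair titled PC3 alone, that pair gives 0.23 and both pairs have the same sign. With both pairs turned, as the study's direction for CEACAM5 and CDH6 would have it, the signs stay opposite.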

How the results depend on the processing

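No paired analysis was possible because the titles give no replicate numbers to use as a block, although the construct term of the limma fit matches the arrays of the lines by construct. Among the recomputed values, 74 kept their direction and side of the threshold or stayed near their value. Another 15 moved further from their main value, 7 reversed direction, and the remaining ones crossed limma's threshold between lines. The reversals include the turned sign of each member in the pair titled PC3, an outcome fixed in advance. The tally is therefore no measure of robustness. CEACAM1, CEACAM5 and CEACAM6 kept the sign of their difference in the pair titled C42B under all alternatives run there. Each has 1 probe set, so taking the brightest probe set could not change its value. CEACAM1 and CEACAM5 were also picked on their differences within a pair. CEACAM7 (0.06) went to -0.02 with a loess trend subtracted and to -0.03 after renewed quantile normalization. With the construct of the genotype field, the pair titled PC3 gave -1.52 for CEACAM1, -0.53 for CEACAM5, 0.23 for CEACAM6 and -0.16 for CEACAM7. In the pair titled C42B, the genes past the fold were 1283 higher and 1202 lower at 1.5-fold and 176 and 33 at 3-fold, and 246 were 2-fold higher among the brighter genes (those reaching the array median). In the pair titled PC3 they were 641 and 517 at 1.5-fold, 36 and 19 at 3-fold, and 44 and 34 among the brighter genes. Between lines, CEACAM1 stayed at 1.59, a description with no test, since it was picked on the high array titled C42B miR-CON. CEACAM6 stayed at 0.93. It was called with the construct of the genotype field (limma adjusted p = 0.0314), but not with the construct by title (adjusted p = 0.0662). With line only, each array left out and the lone array of a line assumed to vary like the others, CEACAM1 ranged from 0.04 to 3.14, CEACAM5 from -0.08 to 4.31, CEACAM6 from 0.58 to 1.28 and CEACAM7 from 0.18 to 0.34, with 1189 to 2223 genes called higher and 1071 to 2817 lower. The causes were not tested. CEACAM6 and CEACAM7 have no line value among the brighter genes, since that filter removed them.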
